A study of Mus musculus with 14 samples.

Results

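The miRs described here are the late entries of the mouse miR catalogue, those whose number is 1000 or higher, read on microarrays of the left ventricle (LV). They were picked by name alone from the 520 mouse miRs of the deposited table of processed values. miR-1188, miR-1193 and miR-1197, which lie in a cluster with older miRs, were left out, and miR-720, which is a piece of a tRNA in spite of its lower number, was added. A row named for both miR-486 and miR-3107 was also left out, by the first of its numbers. This gave 89 members. The arrays came from 14 male C57Bl/6 mice aged 3 to 4 months. The 5 HF-ESTR mice underwent transverse aortic constriction (TAC), reached heart failure (HF) 6 to 8 weeks later and then carried a 10-day pellet releasing 0.03 mg/kg estradiol per day. The 5 HF mice had the same constriction and were euthanized when they reached HF, at an ejection fraction of about 35%, compared with about 60% in healthy mice before surgery. The 4 sham mice had surgery without constriction. No group held HF mice followed for the pellet's days without estradiol, so estradiol and the added days cannot be told apart.

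A canonical miR is cut from a hairpin in the nucleus by Drosha with its partner Dgcr8, cut again by Dicer in the cytoplasm, and loaded into an Argonaute protein, where bases 2 to 8, the seed, pair with target mRNAs. Many of the late-registered miRs were found by deep sequencing of small RNAs and do not follow this route. Mirtrons are hairpins made by splicing of a short intron, which spares them Drosha, and other entries turned out to be fragments of tRNAs, rRNAs or repeats. In the heart most members have no settled role, so some are introduced below by their sequence and any gene span that covers them.

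Sequences of some of the members described below are printed with the seed in capitals. Of the 89 members, 66 matched a mature miR of RefSeq (GRCm38.p6) exactly, 7 matched within a RefSeq hairpin and 16 had no match there. Lengths ran between 17 and 27 bases. The first lines are the 3 measured tRNA pieces. Of these, miR-720 and miR-1937c end in cca, the letters added to the 3′ end of every mature tRNA, and both sequences are given as in the deposited table because RefSeq had no match for them.
miR-720: aUCUCGCUggggccucca
miR-1937c: aUCCCGGAagagccccca
miR-1983: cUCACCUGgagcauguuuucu
Among members, 5 ended in cca, compared with 4 of the 431 other mouse miRs. Besides miR-720 and miR-1937c these were miR-3096-3p, without a match, and miR-3097-5p and miR-3102-3p.2. The last pair matched mature miRs of RefSeq exactly, and the origin of their cca was not tested. miR-1983 lay at chr13:21896930-21896950 on the minus strand (GRCm38.p6).

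The next lines are both arms of the mirtron miR-1224, the mirtron miR-1981, and miR-1971, which has the same seed as miR-1981.
miR-1224: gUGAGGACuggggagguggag
miR-1224*: cCCCACCUcuucucuccucag
miR-1981: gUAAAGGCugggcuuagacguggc
miR-1971: gUAAAGGCugggcugaga
miR-1224 lay at chr16:20604452-20604472 and miR-1224* at chr16:20604516-20604536, on the plus strand within the span of Vwa5b2. miR-1981 lay at chr1:184822465-184822488 on the minus strand within the span of Mtarc2. The miR-1971 letters fell inside a RefSeq hairpin at chr14:78191373-78191478 on the minus strand.

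The last lines are 9 members with a place in RefSeq that are described singly in the comparisons below. They share no seed with each other.
miR-3076-5p: cACAGGGGaagcucagugccagcc
miR-1247: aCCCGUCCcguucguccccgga
miR-3098-3p: uUCUGCUGccugccuuuagga
miR-3102: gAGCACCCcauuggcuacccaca
miR-1199*: uGCGGCCGgugcucagucggc
miR-1899: aGCGAUGGccgaaucugcuucc
miR-1897-3p: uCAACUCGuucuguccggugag
miR-1900: gGCCGCCCucucugguccuuca
miR-1970: uGUGUCACuggggauaggcuuug
The hairpin of miR-3076-5p was at chr14:30572149-30572208 (plus) within the span of Tkt, which encodes the pentose phosphate enzyme transketolase. miR-1247 was at chr12:110278094-110278115 (minus) and miR-3098-3p at chr6:125195845-125195865 (plus), neither within a gene span. miR-3102 was at chr7:100882307-100882329 (minus) in the span of Arhgef17, and miR-1199* at chr8:84011549-84011569 (minus) in that of Misp3. miR-1899 was at chr9:8246796-8246817 (plus). miR-1897-3p was at chr3:34638511-34638532 (plus) in the span of the long noncoding RNA Sox2ot, miR-1900 at chr9:21032261-21032282 (minus) in that of Icam5, a neuronal adhesion molecule, and miR-1970 at chrX:135786174-135786196 (minus) in that of Gprasp1. In all, 72 members had 1 place in RefSeq and 57 of these lay inside a gene span. Exons, introns and gene strand were not analysed here. Of the unmatched members, miR-1907 carried the seed AGCAGCA, which in these data it shared with miR-15a, miR-15b, miR-16, miR-195, miR-322 and miR-497, the family known for restraining the cell cycle in heart muscle.

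The array of 2576 probes held 242 probes for such late-numbered mouse miRs. Of these, 89 (36.8%) passed the filter of the deposited table, compared with 431 of the 795 other mouse probes (54.2%). The authors set the filter by the signal of the negative control probes, and 107 of the 153 probes outside the table were above the array's threshold on no array. The other 46 were above it on 1 to 11 arrays. Since the table kept probes by their level on these same arrays, counts over the 89 members are not counts over all late-registered miRs.

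Signals below are on the authors' log2 scale, where each probe is the mean of the log2 signal of 3 spots plus 1 constant per array. Different probes bind their targets unequally, so the signal of a probe was set only against the negative controls and against the same probe on other arrays. Taken as the mean height over the 28 negative control probes of the same array, members stood between 1.16 and 11.38 log2 units above them, with a median of 3.48, compared with a median of 3.64 for the other 431 mouse miRs. Within 2 log2 units of the controls were 16 members (18%, compared with 21.3% of the other miRs), and 6 units or more above were 19.1% of members (31.1% of the others).

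Detection differed little between groups. Between 85 and 88 of the 89 members were above the threshold on HF-ESTR arrays, between 84 and 89 on HF arrays and 87 or 88 on sham arrays. 74 members were above it on all 14 arrays, and no member was above it on every array of a group and on no array of another. The member seen on the fewest arrays, 7, was miR-3110* (Tmem255a span, chromosome X). Its scaled log2 values were 6.85, 5.20, 5.38, 5.46 and 5.16 in HF-ESTR mice, 6.24, 5.99, 5.72, 6.19 and 5.42 in HF mice, and 6.14, 5.62, 5.34 and 4.49 in sham mice. It was above the threshold on 1 of 5 HF-ESTR arrays, 5 of 5 HF arrays and 1 of 4 sham arrays. With the scaled values its group ranges overlapped throughout and it was called in no comparison. Without scaling it was called higher in HF than in sham (limma log2 fold change 1.30, adjusted p = 0.0316).

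**Figure D1:**
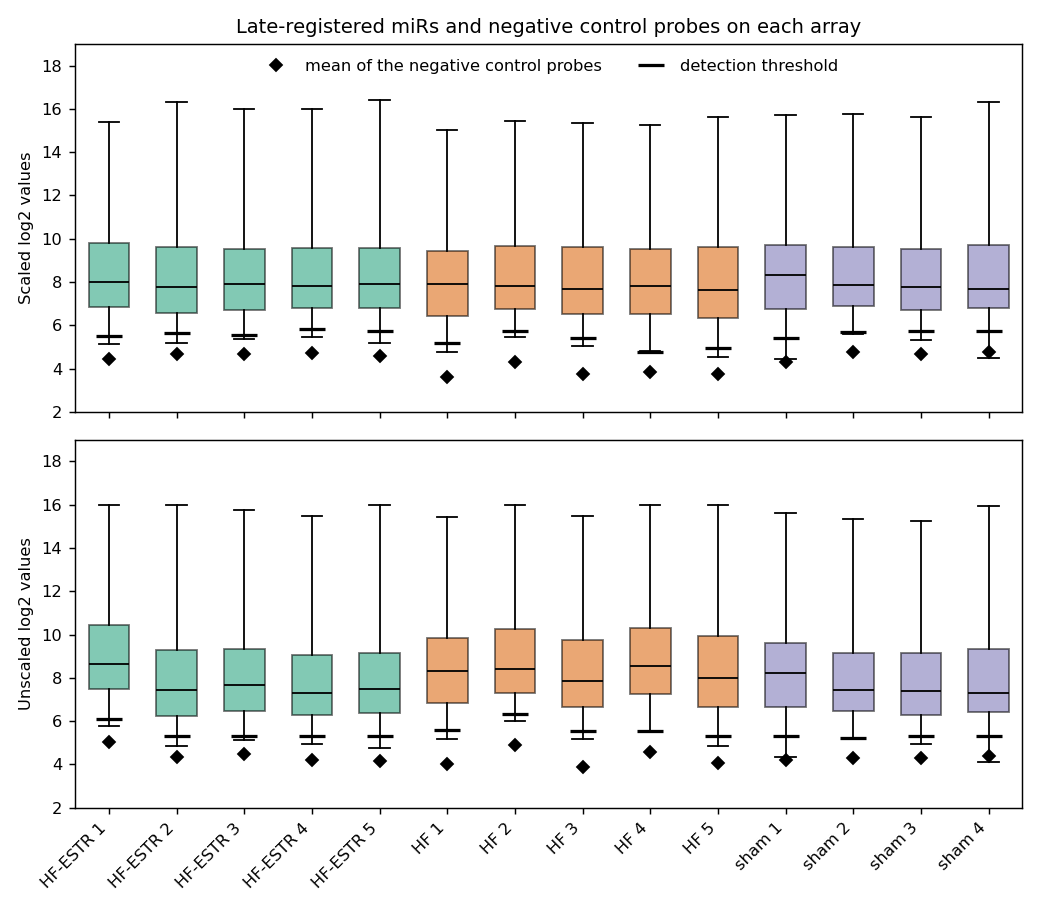
Scaled (top) and unscaled (bottom) log2 signal of the 89 members on each array, in the order HF-ESTR, HF and sham, with boxes for the quartiles, whiskers for the lowest and highest member, diamonds for the mean of the 28 negative control probes and dashes for the detection threshold. With scaling the diamonds average 4.62 in HF-ESTR, 3.85 in HF and 4.64 in sham arrays, while without scaling the averages lie between 4.30 and 4.45.

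The brightest members stood at the opposite end. miR-2145 read 15.38, 16.33, 15.99, 16.00 and 16.41 in HF-ESTR, 15.03, 15.42, 15.36, 15.26 and 15.65 in HF, and 15.73, 15.78, 15.63 and 16.32 in sham mice. It was saturated, with at least 2 of its 3 spots at a reading of 65000 or more, on HF-ESTR 1, 2 and 5 and on HF 2, 4 and 5, so its scaled value on those arrays is a lower bound set by the ceiling and the array's constant. The other bright members were miR-720, which was saturated on HF-ESTR 5, miR-2861 on chromosome 2 (saturated on HF-ESTR 1 and HF 5), miR-2137 in the span of Zfp185 (HF 5), miR-1195, whose letters are those of B1 repeats, and miR-3077* in the span of Sap18, a subunit of a histone deacetylase complex. miR-2861, miR-2137, miR-1195 and miR-3077* were called in none of the comparisons with the scaled values. miR-2137 varied widely within HF, where it read 13.51, 13.87, 13.07, 13.15 and 15.65, with HF 5 above the other arrays.

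Several arrays stood apart before any comparison was made. The array constants were -0.62 for HF-ESTR 1 and between 0.23 and 0.52 for the other HF-ESTR arrays, between -0.74 and -0.14 for HF, and between 0.10 and 0.46 for sham. Scaling therefore lowered all 5 HF arrays and HF-ESTR 1 and raised the other 8. Codes in the column names also split the arrays: the 4 sham arrays had a code of their own, HF 1 to 4 shared another, HF 5 was with HF-ESTR 1 to 3, and HF-ESTR 4 and 5 formed the last. Sham arrays shared a code group with no HF or HF-ESTR array, so the code and the group cannot be told apart in HF over sham or in HF-ESTR over sham. What the codes stand for is not given in the sources used here. A second code differed for HF 2 and HF-ESTR 1.

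The heat map of members by array shows where single arrays led. Sham 1 held the highest value of 18 members (20.2%, compared with 11.6% of the other mouse miRs) and HF-ESTR 1 that of 13 (14.6%, compared with 3.25%). HF-ESTR 5 held the highest value of 10 members (11.2%, compared with 5.57%), and HF 5 the lowest value of 22. Lowest values were not counted for the other mouse miRs, so it is not known whether this is particular to members. Markers of the tissue were present throughout: 5 of 6 heart muscle miRs, both endothelial and both smooth muscle miRs, all 4 white blood cell miRs and 2 of 3 red blood cell miRs were above the threshold on every array, while the liver and neuron miRs were outside the table and 1 of 4 epithelial miRs was in it. In LV tissue, fewer cells of a type and less RNA per cell cannot be told apart.

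**Figure D2:**
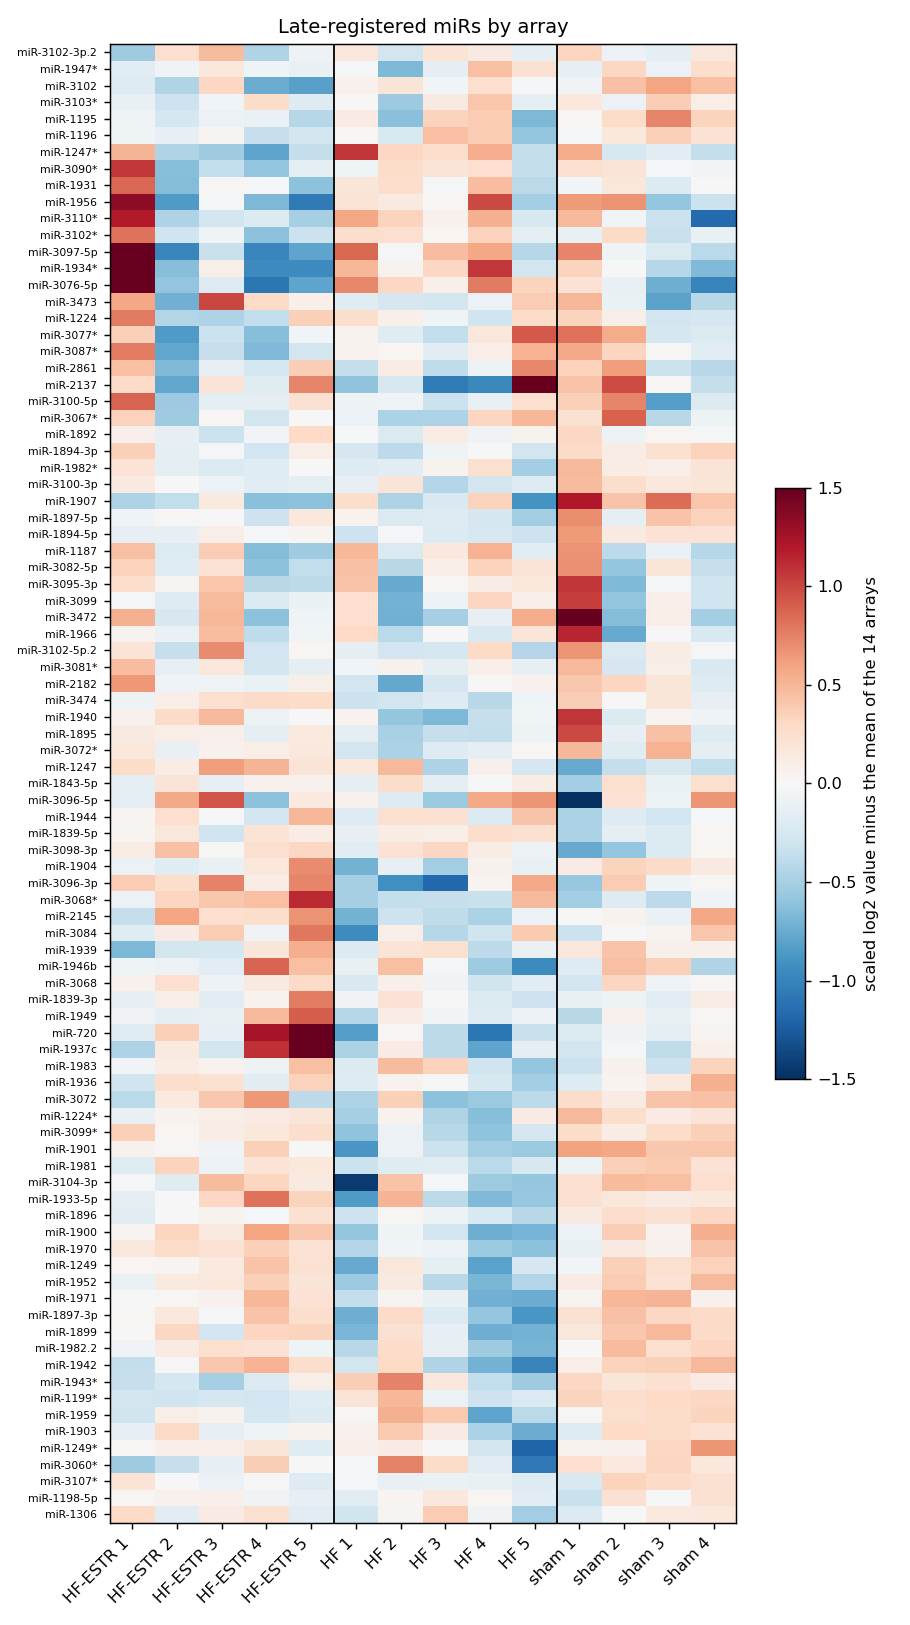
Scaled log2 signal of each of the 89 members (rows) on each of the 14 arrays (columns, HF-ESTR then HF then sham), as the difference from that member's mean over the arrays. HF-ESTR 1 and sham 1 hold the highest value of 13 and 18 members, and HF 5 the lowest of 22.

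The first comparison was of HF with sham, that is, of mice whose hearts had failed under pressure overload and mice without constriction. With the scaled values, 15 members were lower in HF and 1 was higher. A call here means a Benjamini-Hochberg adjusted p under 0.05 over all 520 mouse miRs in limma and a log2 fold change past 0.5. The 15 lower members were 16.9% of 89, and 18.3% of all mouse miRs tested were called lower, while 8.46% were called higher. The median log2 fold change was -0.26 over members and -0.13 over all mouse miRs, and members ranged between -0.97 and 0.86. In 10 members every HF value lay below every sham value, a separation seen in 13.7% of all mouse miRs, and in no member did every HF value lie above, a separation seen in 7.88% of all mouse miRs. The share of members called lower was thus near the share among all mouse miRs.

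The negative control probes moved the same way. Their mean was 3.85 ± 0.27 in HF and 4.64 ± 0.22 in sham with the scaled values, a difference of -0.79 (SD, n = 5 and 4, exact two-sided permutation p = 0.0159). Of the 15 members called lower, 13 differed by no more than these probes, and 5 lay within 2 log2 units of them. The 2 that differed by more were miR-1901 and miR-1907. Without scaling the control probes averaged 4.30 ± 0.42 in HF and 4.31 ± 0.07 in sham (exact permutation p = 0.968). Over the same unscaled values 28 members were called higher in HF and 0 lower (limma, 0 lower at an unadjusted p under 0.05), with a median of 0.52, where 46.9% of all mouse miRs were called higher and their median was 0.66. In 19 members every unscaled HF value lay above every sham value, compared with 41.9% of all mouse miRs. Of the 16 members called with scaling, 13 changed sign without it and 1 was called in the same direction.

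**Figure D3:**
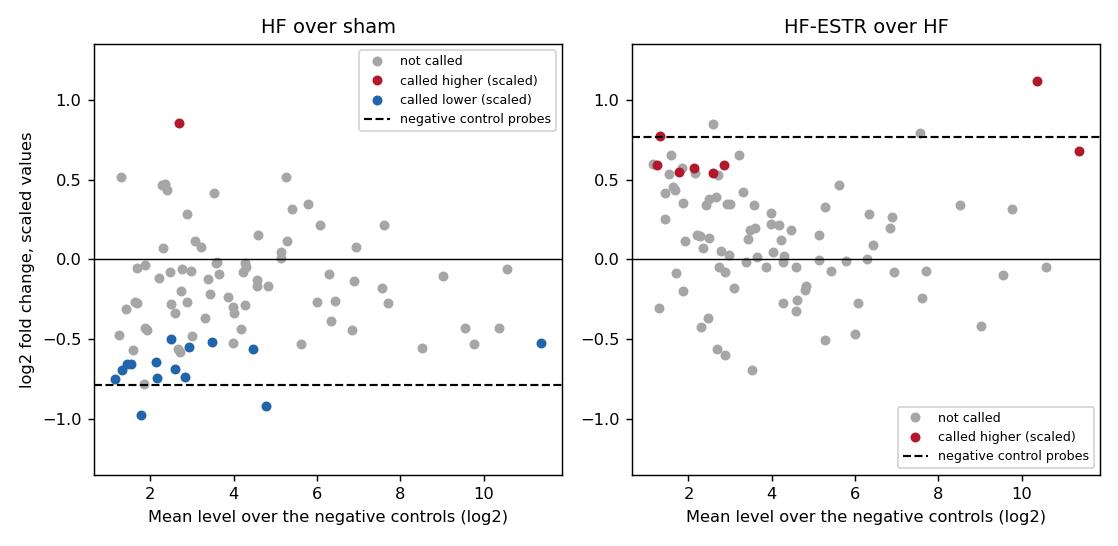
Log2 fold change with the scaled values (vertical axis) of each member against its mean height over the negative control probes (log2, horizontal axis), for HF over sham and HF-ESTR over HF. The dashed line marks the difference of the control probes themselves, -0.79 and 0.77, and members within 2 log2 units of the controls have medians of -0.46 and 0.44, on the same side as the line.

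With the deposited scaling the dimmest members had the lowest median. The 16 members within 2 log2 units of the negative controls had a median log2 fold change of -0.46 for HF over sham, compared with -0.20 for the 36 members between 2 and 4, -0.10 for the 20 between 4 and 6, and -0.26 for the 17 above. The other mouse miRs gave -0.40, -0.11, 0.05 and -0.04 over the same steps. Without scaling the same members gave 0.33, 0.58, 0.68 and 0.52. With quantile normalization they gave -0.17, -0.14, -0.11 and -0.26, with the brightest step lowest.

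The member called higher in HF was miR-3076-5p of the Tkt span. Its scaled log2 values were 7.76, 7.35, 7.11, 7.81 and 7.37 in HF, against 7.25, 6.92, 6.30 and 6.03 in sham, and the fit gave a log2 fold change over sham of 0.86 (SE 0.25, adjusted p = 0.0249). HF 3 was below sham 1 and otherwise each HF array was above each sham array. Without scaling it read 8.17, 7.93, 7.25, 8.55 and 7.72 in HF and 7.15, 6.46, 5.90 and 5.64 in sham, so that the groups did not overlap (1.64, SE 0.36, adjusted p = 0.00648). It was called higher under each of the 6 scalings that were tried. With the deposited scaling the call was lost without sham 3 (0.75, adjusted p = 0.0795), sham 4 (0.66, adjusted p = 0.0755), HF 1 (0.79, adjusted p = 0.0563) or HF 4 (0.77, adjusted p = 0.0578). It was also lost with all 14 arrays in the fit (0.86, adjusted p = 0.179) and with the test of the methods. In HF-ESTR mice it read 9.13, 6.44, 6.84, 5.95 and 6.24, with HF-ESTR 1 far above the others and above every HF and sham array, and was not called against HF (-0.56, adjusted p = 0.484). Without HF-ESTR 1 it was called lower than in HF (-1.12, adjusted p = 0.00599).

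miR-1901 had the largest fall of any member. It read 5.25, 6.04, 5.81, 5.61 and 5.57 in HF and 6.73, 6.71, 6.54 and 6.54 in sham (log2 fold change -0.97, SE 0.16, adjusted p = 0.00315). All HF arrays were below all sham arrays, and the probe stood 1.78 log2 units above the negative controls on average. Without scaling HF read 5.67, 6.62, 5.95, 6.35 and 5.92 and sham 6.63, 6.25, 6.14 and 6.15, and the groups overlapped (-0.19, adjusted p = 0.473). With the arrays set to a common 75th percentile the difference was -0.80 (adjusted p = 0.00621), and it was called lower in 4 of 6 scalings. miR-1901, miR-1952 and miR-3099* were the members whose call held with each of the 9 arrays left out in turn.

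miR-1907, with the seed of the miR-15 family, stood higher above the controls, by 4.79 log2 units. Its scaled values were 9.41, 8.67, 8.92, 9.49 and 8.25 in HF, against 10.35, 9.57, 9.98 and 9.56 in sham (log2 fold change -0.92, SE 0.26, adjusted p = 0.024). HF and sham did not overlap, although HF 4 nearly reached sham 4. Without scaling the difference was -0.13 (adjusted p = 0.808) and the groups overlapped. Leaving out sham 1 gave -0.76 (adjusted p = 0.0626) and leaving out sham 3 gave -0.88 (adjusted p = 0.0675), and neither was called.

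miR-1942, miR-1899 and miR-1897-3p completed the largest falls. The log2 fold change was -0.75 for miR-1942 (SE 0.23, adjusted p = 0.0283), which was the dimmest member at 1.16 log2 units over the controls. It was -0.74 for both miR-1899 (SE 0.21, adjusted p = 0.0219) and miR-1897-3p (SE 0.22, adjusted p = 0.0264). In each, HF 2 read above at least 1 sham array, and in all 3 the sign turned without scaling, to 0.03, 0.04 and 0.05. The other members called lower were miR-1900, miR-1952, miR-1971, miR-3072, miR-3099*, miR-1897-5p, miR-1224*, miR-1894-5p, miR-2145 and miR-1904, with log2 fold changes between -0.69 and -0.50. Since miR-2145 was at the ceiling on 3 HF arrays and on no sham array, its HF mean is a lower bound and its difference of -0.52 may be too large in size. The number of members called depended on single arrays. It was 8 without sham 2, 5 without sham 3, 9 without sham 4, 7 without HF 1, 7 without HF 4 and 10 without HF 5. Without sham 3, 34 of all 520 mouse miRs were called higher and 66 lower.

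The second comparison was of HF-ESTR with HF, that is, of mice given estradiol once HF was established and mice taken when they reached HF. With the scaled values 8 members were higher in HF-ESTR and 0 were lower. These were 8.99% of members, where 11.2% of all mouse miRs were called higher and 0.962% lower. At an unadjusted p under 0.05, limma put 2 members lower and 21 higher, and the equal-variance test named in the study's methods called 0 in either direction after Benjamini-Hochberg adjustment. The median log2 fold change was 0.15 over members and 0.06 over all mouse miRs, with members between -0.69 and 1.12. In 4 members every HF-ESTR value lay above every HF value, compared with 4.04% of all mouse miRs. The share of members called higher was again no larger than that of all mouse miRs.

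The negative controls averaged 4.62 ± 0.11 in HF-ESTR and 3.85 ± 0.27 in HF with scaling, a difference of 0.77 (SD, n = 5 each, exact two-sided permutation p = 0.00794, the smallest this design allows). Of the 8 members called higher, 6 differed by no more than the controls and 3 lay within 2 log2 units of them, while miR-720 and miR-1900 differed by more. Without scaling the controls averaged 4.45 ± 0.36 in HF-ESTR and 4.30 ± 0.42 in HF (exact permutation p = 0.540), 12 members were called lower and 0 higher (limma, 0 higher at an unadjusted p under 0.05), and the median was -0.47, where 32.5% of all mouse miRs were called lower with a median of -0.56. None of the 8 was called without scaling, and 5 changed sign. By height over the controls, the scaled medians were 0.44, 0.17, -0.01 and 0.09 from the dimmest step to the brightest, and with quantile normalization 0.14, 0.17, 0.02 and 0.18. The HF arrays entered both of these comparisons, so the opposite directions of the 2 medians are not independent.

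miR-720 showed the largest difference. Its scaled log2 values were 14.55, 15.09, 14.61, 15.98 and 16.41 in HF-ESTR mice, against 13.91, 14.76, 14.34, 13.65 and 14.40 in HF mice. HF-ESTR 4 and 5 were above every other array, and the remaining HF-ESTR values overlapped the HF values. Group means were 15.33 ± 0.83 in HF-ESTR, 14.21 ± 0.43 in HF and 14.64 ± 0.11 in sham (SD, n = 5, 5 and 4). The log2 fold change of HF-ESTR over HF was 1.12 (SE 0.32, adjusted p = 0.0419). HF-ESTR 4 and 5 were the 2 arrays of the last code group. Without them the log2 fold change was 0.54 (adjusted p = 0.268), and with the code group as a fixed block it was 0.35 (adjusted p = 0.665), an estimate that rests on HF-ESTR 1 to 3 against the single array HF 5 and takes its spread from the other arrays. With the code group as a random block it was 1.12 (adjusted p = 0.0400). The correlation within code groups was estimated at -0.00865, so that fit is almost the unblocked one. It cannot show whether the difference holds apart from the code group. HF-ESTR 5 was saturated, so its value is a lower bound. Without scaling miR-720 read 15.17, 14.76, 14.38, 15.47 and 16.00 in HF-ESTR and 14.33, 15.34, 14.47, 14.39 and 14.75 in HF, a log2 fold change of 0.50 (adjusted p = 0.165).

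The other tRNA pieces were set beside it. miR-1937c read 11.45, 12.07, 11.64, 13.01 and 13.71 in HF-ESTR and 11.44, 12.04, 11.52, 11.13 and 11.79 in HF, with sham between 11.54 and 12.00. HF-ESTR 4 and 5 were again above every other array, but the difference did not pass the test (0.79, SE 0.34, adjusted p = 0.154). miR-1983 read 9.45, 9.60, 9.54, 9.41 and 9.94 in HF-ESTR, 9.28, 9.96, 9.83, 9.19 and 8.91 in HF, and 9.17, 9.56, 9.16 and 9.82 in sham, with ranges that overlapped and a log2 fold change of 0.15 over HF (adjusted p = 0.700). Of the 6 tRNA pieces on the list, miR-1274a, miR-1937a and miR-1937b were not analysed here. With the scaled values, 1 of the 3 measured was called in any comparison. Without scaling, miR-1937c (0.60, adjusted p = 0.0356) and miR-1983 (0.79, adjusted p = 0.0311) were called higher in HF than in sham. The unscaled difference of miR-720 between HF and sham was not called (0.36, adjusted p = 0.189).

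**Figure D4:**
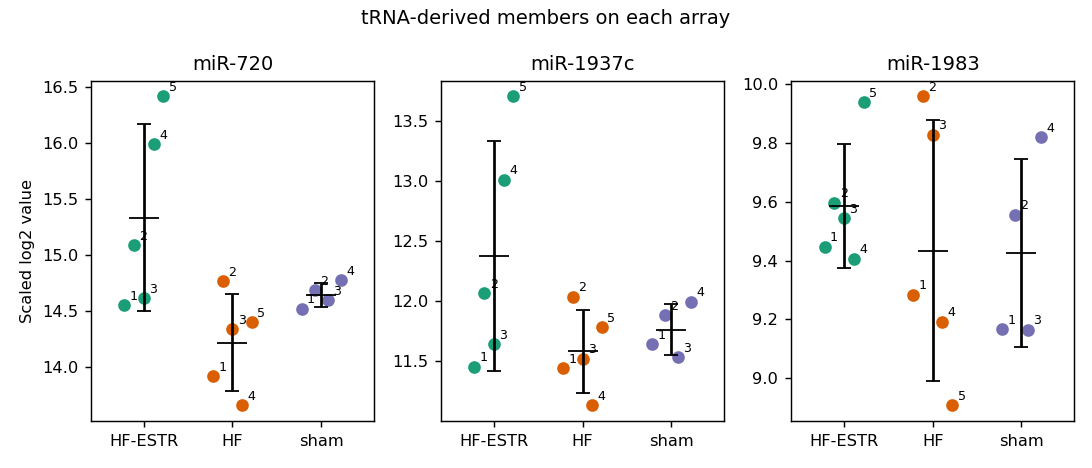
Scaled log2 signal of the 3 measured tRNA pieces on each array, in HF-ESTR, HF and sham mice, with the group mean and SD. For miR-720 and miR-1937c HF-ESTR 4 and 5 stand above all other arrays (15.98 and 16.41 for miR-720, 13.01 and 13.71 for miR-1937c), which miR-1983 does not show.

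Among all mouse miRs, the pattern over arrays most like that of miR-720 was that of miR-1937c (Pearson r = 0.96 over 14 arrays), followed by miR-1949 (0.88) and miR-326 (0.83). These are descriptions over arrays that share groups and constants. Without HF-ESTR 4 and 5 the coefficients over the other 12 arrays were 0.86, 0.48 and 0.74.

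miR-1900, of the Icam5 span, was the other member that differed by more than the controls, by a small margin. Its scaled values were 5.72, 6.00, 5.82, 6.27 and 6.08 in HF-ESTR and 5.08, 5.62, 5.39, 4.95 and 4.98 in HF, and the groups did not overlap (0.78, SE 0.17, adjusted p = 0.0189). Sham lay with HF-ESTR, at 5.59, 6.04, 5.73 and 6.22. It stood 1.32 log2 units above the controls and was above the threshold on 5 of 5 HF-ESTR, 2 of 5 HF and 4 of 4 sham arrays. Scaled to the negative controls the difference was 0.01 (adjusted p = 0.959).

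miR-1970, of the Gprasp1 span, read 5.76, 5.87, 5.82, 5.96 and 5.82 in HF-ESTR and 5.16, 5.56, 5.52, 5.05 and 4.99 in HF (0.59, SE 0.14, adjusted p = 0.0237). The HF-ESTR arrays lay closely together and above all HF arrays, at 1.25 log2 units above the controls on average, and without scaling the difference was -0.03. miR-3099* and miR-1901 also separated the groups, with log2 fold changes of 0.57 (SE 0.13, adjusted p = 0.0189) and 0.55 (SE 0.14, adjusted p = 0.0313), while miR-1897-3p (0.59) and miR-1952 (0.54) passed the test with overlapping arrays. miR-2145 also passed it (0.68), but it was at the ceiling on 3 arrays of each group, where its scaled value follows the array constant, and without scaling the difference was 0.06 (adjusted p = 0.810). In HF-ESTR 1 to 3 against HF 5, the 1 code group that held both, the difference was positive for each called member other than miR-2145, which was saturated there, and lay between 0.35 for miR-720 and 0.93 for miR-1897-3p. These values rest on a single HF array. The count of 8 rested on single arrays. It was 1 without HF 1, 15 without HF 2, 0 without HF 4, 5 without HF 5, 19 (14 higher and 5 lower) without HF-ESTR 1, 2 without HF-ESTR 2, 1 without HF-ESTR 4 and 2 without HF-ESTR 5. Of all 520 mouse miRs, 74 were called higher and 13 lower without HF-ESTR 1, and 4 and 1 without HF 4.

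The third comparison, of HF-ESTR with sham, was the one in which the negative controls differed least with the scaled values. Without scaling that was HF over sham. They averaged 4.62 ± 0.11 in HF-ESTR and 4.64 ± 0.22 in sham with scaling (difference -0.02, exact permutation p = 0.873) and 4.45 ± 0.36 and 4.31 ± 0.07 in the same groups without it (difference 0.14, exact permutation p = 0.603). With the scaled values 2 members, miR-1247 and miR-3098-3p, were higher in HF-ESTR and 3, miR-1907, miR-3102 and miR-1199*, were lower, where 5.19% of all mouse miRs were called higher and 3.27% lower. The median was -0.10 over members and -0.05 over all mouse miRs. Every HF-ESTR value lay above every sham value in 1 member and below in 7, compared with 6.54% and 7.5% of all mouse miRs. The calls of miR-1247 and miR-1907 held with each of the 9 arrays left out in turn. All 5 calls were the same with quantile normalization and with scaling to the negative controls, and 3 of the 5 with scaling to the 75th percentile. None was called with the unscaled values, where 1 member, miR-3068*, was called higher and 0 lower (limma, 1 lower at an unadjusted p under 0.05) and 3.85% of all mouse miRs were called higher. Without HF-ESTR 4 and 5, limma called 0 members, with 3 higher and 7 lower at an unadjusted p under 0.05.

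miR-1247 had scaled log2 values of 7.04, 6.87, 7.39, 7.27 and 6.96 in HF-ESTR, against 6.00, 6.40, 6.52 and 6.40 in sham (0.77, SE 0.19, adjusted p = 0.0158). All HF-ESTR arrays were above all sham arrays. HF lay between, at 6.94, 7.25, 6.30, 6.84 and 6.51, and overlapped both (0.44 over sham, adjusted p = 0.117). Without scaling it read 7.66, 6.55, 7.16, 6.76 and 6.54 in HF-ESTR, 7.35, 7.82, 6.44, 7.58 and 6.86 in HF, and 5.90, 5.94, 6.12 and 6.00 in sham. All arrays of both HF groups were then above all sham arrays. Without scaling such a separation was seen in 41.9% of all mouse miRs for HF and in 10% for HF-ESTR. For miR-1247 the limma log2 fold change over sham was 0.94 in HF-ESTR (adjusted p = 0.105) and 1.22 in HF (adjusted p = 0.0066). The other arm of its hairpin, miR-1247*, was not called in any comparison with the scaled values (-0.27 for HF-ESTR over sham, adjusted p = 0.613).

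miR-3098-3p gave a similar picture. It read 6.74, 7.07, 6.65, 6.87 and 6.94 in HF-ESTR, 6.47, 6.84, 6.94, 6.75 and 6.54 in HF, and 5.87, 6.04, 6.42 and 6.65 in sham. HF-ESTR 3 and sham 4 met at 6.65 and the groups otherwise did not overlap (HF-ESTR over sham 0.61, SE 0.17, adjusted p = 0.0288). Without scaling every array of both HF groups was above every sham array, as in 41.9% of all mouse miRs for HF and 10% for HF-ESTR. The limma log2 fold change of miR-3098-3p over sham was then 0.78 in HF-ESTR (adjusted p = 0.0728) and 1.25 in HF (adjusted p = 0.00109). For HF over sham both miR-1247 and miR-3098-3p were called higher in 5 of the 6 scalings, the deposited scaling being the exception.

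Of the 3 lower members, miR-1907 read 8.68, 8.77, 9.29, 8.52 and 8.53 in HF-ESTR, all below the sham values given above (-1.11, SE 0.25, adjusted p = 0.010). miR-3102 of the Arhgef17 span read 10.16, 9.90, 10.66, 9.61 and 9.54 in HF-ESTR and 10.29, 10.79, 10.95 and 10.81 in sham (-0.74, SE 0.21, adjusted p = 0.0334). HF-ESTR 3 was above sham 1 and the other HF-ESTR arrays were below every sham array. The other measured members of the miR-3102 hairpin were not called here with the scaled values. They changed by -0.03 (miR-3102*), -0.07 (miR-3102-5p.2) and -0.14 (miR-3102-3p.2). miR-1199* read 8.36, 8.34, 8.38, 8.35 and 8.45 in HF-ESTR and 8.97, 8.90, 8.94 and 8.94 in sham, which did not overlap (-0.56, SE 0.15, adjusted p = 0.0253). Both groups were tight, with an SD of 0.05 in HF-ESTR and 0.03 in sham, and HF covered the range of both, at 8.82, 9.13, 8.55, 8.32 and 8.42. Leaving out 1 array changed the count of 5 to 2 without sham 2, HF-ESTR 2 or HF-ESTR 4, to 3 without sham 1, sham 3, sham 4 or HF-ESTR 5, and to 7 without HF-ESTR 1. In that last fit 25 of all 520 mouse miRs were called higher and 13 lower.

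**Figure D5:**
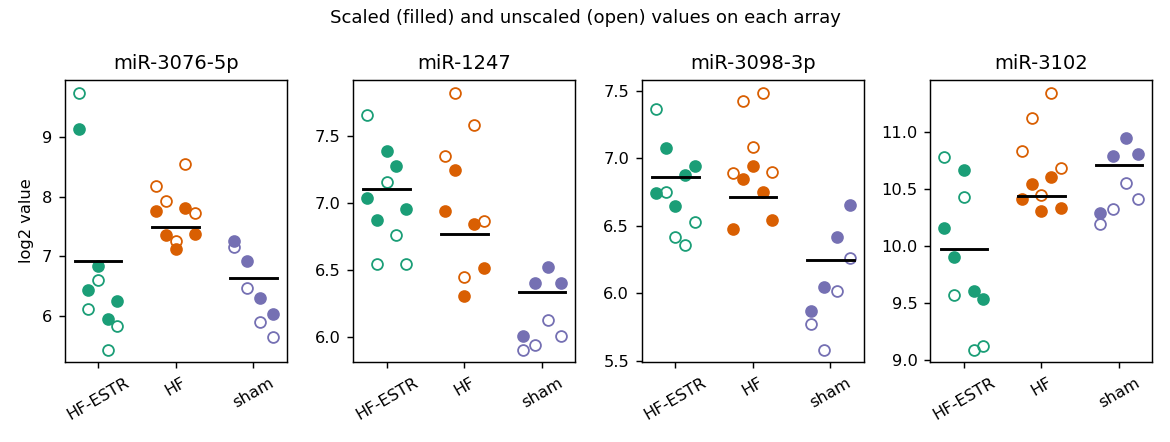
Log2 signal of miR-3076-5p, miR-1247, miR-3098-3p and miR-3102 on each array of HF-ESTR, HF and sham mice, filled for scaled and open for unscaled values, with a line at the scaled group mean. Without scaling, miR-1247 and miR-3098-3p in HF-ESTR and HF stand above all sham arrays, and miR-3076-5p stands out in HF-ESTR 1 at 9.13 scaled and 9.74 unscaled.

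With the scaled values the 2 mirtrons on the list, miR-1224 and miR-1981, gave 1 call. Whether other members are mirtrons was not examined, since introns were not analysed. miR-1224 read 12.07, 10.85, 10.82, 10.91 and 11.64 in HF-ESTR, 11.54, 11.36, 11.22, 10.99 and 11.56 in HF, and 11.62, 11.37, 10.99 and 11.03 in sham, with ranges that overlapped in all 3 comparisons and no call. Without scaling miR-1224 was called higher in HF than in sham (0.86, adjusted p = 0.0111). Its other arm miR-1224* was lower in HF than in sham with the scaled values (-0.55, SE 0.18, adjusted p = 0.0426), which were 6.78, 7.33, 6.83, 6.63 and 7.40 in HF and 7.76, 7.54, 7.40 and 7.47 in sham. The groups did not overlap, but HF 5 and sham 3 were equal after rounding. Without scaling miR-1224* differed by 0.24 (adjusted p = 0.412).

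miR-1981 read 7.03, 7.17, 7.19, 6.94 and 7.10 in HF and 7.26, 7.70, 7.73 and 7.56 in sham, which did not overlap. Its log2 fold change of -0.48 (SE 0.14, adjusted p = 0.0241) was under the limit of 0.5 in size, and without scaling it was 0.31 (adjusted p = 0.0278), in the opposite direction. miR-1971, with the same seed, was called lower in HF (-0.66, SE 0.20, adjusted p = 0.0283) at 1.54 log2 units above the controls. miR-1306 lies in the span of Dgcr8, the partner of Drosha, at chr16:18284248-18284268 (minus). With the scaled values it was not called (HF over sham -0.12, adjusted p = 0.676). Without scaling it was called higher in HF than in sham (0.67, adjusted p = 0.0169). The 3 miRs of the Htr2c introns, miR-1264, miR-1298 and miR-1912, had no row among the 520.

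In 12 hairpins more than 1 member was measured, 26 members in all. In 1 of these, miR-1897, both arms were called in HF over sham with the scaled values (-0.56 for miR-1897-5p and -0.74 for miR-1897-3p). miR-1224, miR-1894, miR-3072 and miR-3099 had 1 arm called lower in HF and the other not. The difference between arms was not tested. miR-3068* stood apart from its partner miR-3068 in HF-ESTR over sham (limma 0.73, SE 0.23, adjusted p = 0.0536, compared with 0.13 for miR-3068), and was called without scaling (0.90, adjusted p = 0.0342). All its unscaled HF-ESTR values lay above all sham values, a separation seen in 10% of all mouse miRs. The hairpin of miR-3100-5p and miR-3100-3p lies in the span of Dmpk, the muscle kinase gene expanded in myotonic dystrophy. These arms were not called in HF over sham with the scaled values (-0.08 and -0.44).

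With no filter on level, all 242 late-numbered probes were tested beside the other mouse probes of the array, 1037 in all. In HF over sham 52 of the 242 were called lower and 1 higher, compared with 22.1% and 4.05% of the mouse probes. In HF-ESTR over HF 84 were called higher and 0 lower, compared with 28.9% and 0.579% (limma, 117 higher and 2 lower at an unadjusted p under 0.05). In HF-ESTR over sham 1 was called higher and 1 lower, compared with 1.64% and 0.771%. In the first pair of comparisons these counts ran the same way as the negative control probes, and the part of the controls in them was not tested.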

How the data were processed

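Low molecular weight RNA of 14 LV samples was labelled at the 3′ end and hybridized to single-channel miRBase 16.0 arrays. The deposited raw table holds 1 intensity per spot, from which the authors had subtracted background. The deposited processed table holds log2 values, made by the authors as the mean of 3 spots scaled per array with a trimmed mean, for mouse probes above a threshold set from the negative controls. Each scaled value equalled the mean of the log2 spot intensities (floored at 1) plus 1 constant per array, to within 5.01e-09, and removing that constant gave the unscaled values. The scanner is not given in the sources used here. The number of arrays limits the precision.

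Groups were compared with limma (3.58.1, R 4.3.3), HF and sham on their own 9 arrays and HF-ESTR on all 14, with Benjamini-Hochberg adjustment over 520 mouse miRs. The negative controls were compared with an exact permutation test (scipy 1.17.1). The authors' fold changes, p-values and group means were not used. Members and lists were chosen with earlier results of these data known. Named by rule were miR-720, the 6 brightest and 4 dimmest members, the 5 called members with the highest and the 5 with the lowest change per comparison, members called in 1 direction with and without scaling, members of short lists of tRNA pieces, mirtrons, Htr2c introns and the Dgcr8 exon, and the 3 miRs most like miR-720. Partner arms, miR-1971 and the remaining called members were named after their values were seen. Alternatives were 5 other scalings, other filters, blocks, other arrays and the test of the study's methods. The scripts were tested on simulated data. Same-numbered mice shared no origin in the labels, and their deviations correlated between -0.30 and 0.46 over 13 pairs.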

Additional observations from a re-analysis of the deposited data

Results flagged for a closer look

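In 4 of 87 group-by-measure sets tested, the most extreme array lay farther from the others than Dixon's 95% limit, and chance gives about 1 in 20. In HF-ESTR mice, miR-3110* was 6.85 on HF-ESTR 1 and between 5.16 and 5.46 on the others, on the scaled log2 scale. On the same array miR-3076-5p was 9.13, with the others between 5.95 and 6.84. The scaling constant of HF-ESTR 1 was -0.62, with the others between 0.23 and 0.52. Among HF arrays, the negative controls averaged 4.32 on HF 2 and between 3.63 and 3.83 on the others. HF-ESTR 1 and HF 2 are the arrays whose second code differs.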

How the results depend on the processing

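Members called in HF over sham numbered 16 (1 higher, 15 lower). The count was 28, all higher, with both unscaled versions and 34, all higher, with scaling to the negative controls. It was 9 with quantile normalization (3 higher), with the 75th percentile (4 higher) and with the negative controls subtracted (3 higher), 53 of 242 without the filter, 5 with the test of the methods, and between 5 and 23 with 1 array left out. Of the 16, 6 kept their call with quantile normalization. Among all 520 mouse miRs, 244 were called higher in each unscaled version and 265 with scaling to the controls. Quantile normalization called 45 of them higher and 32 lower, the 75th percentile 72 and 52, and the controls subtracted 62 and 62. The test of the methods called 35 higher and 70 lower. Without HF 2, the setting with 23 members, 45 were higher and 123 lower. The members' median of -0.26 became 0.53 and 0.52 unscaled (log2 of the mean spot and mean of the log2 spots), 0.53 scaled to the controls and -0.48 without the filter, and stayed between -0.29 and -0.23 with 1 array left out.

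In HF-ESTR over HF the 8 calls became 12, all lower, in both unscaled versions and 48, all lower, scaled to the controls. They became 0 with quantile normalization or the controls subtracted (17 members at an unadjusted p under 0.05 in each), 1 with the 75th percentile, 84 without the filter, 5 without saturated miRs, 3 when only these groups were fitted and 0 with the test of the methods (20 unadjusted). They were 0 without HF-ESTR 4 and 5 (11 unadjusted) or with the code group as a fixed block (12 unadjusted), which rests on 1 HF array. With the code group as a random block all 8 remained. That fit is almost the unblocked one, since the correlation within code groups was estimated at -0.00865, and cannot show whether the calls hold apart from the code. The member calls were 23 (18 higher, 5 lower) without HF 2 and HF-ESTR 1, and between 0 and 19 with 1 array left out. Among all 520 mouse miRs, 170 and 169 were called lower in the unscaled versions and 330 scaled to the controls. Quantile normalization called 1 of them higher and 1 lower. Without HF 2 and HF-ESTR 1, 104 were higher and 15 lower. The median of 0.15 became -0.47 in both unscaled versions, -0.62 scaled to the controls and 0.45 without the filter, and lay between 0.11 and 0.19 with 1 array left out.

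In HF-ESTR over sham the 5 calls became 1, higher, in both unscaled versions, 4 with the 75th percentile (3 higher), 2 without the filter, 3 when only these groups were fitted, 3 with the test of the methods and 0 without HF-ESTR 4 and 5. With 1 array left out they were between 2 and 7, and the median of -0.10 lay between -0.14 and -0.05. Among all 520 mouse miRs, 20 were called higher in each unscaled version. The 75th percentile called 36 of them higher and 10 lower, and the fit without HF-ESTR 4 and 5 called 15 and 11.

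With the replicate number as a block, which the labels do not tie to a shared origin, calls were 18 in HF over sham, 11 in HF-ESTR over HF and 4 in HF-ESTR over sham (3 higher). In the same order, 49, 64 and 23 of all 520 mouse miRs were called higher and 95, 8 and 11 lower.

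Without scaling the negative controls differed by -0.00585 (HF over sham), 0.15 (HF-ESTR over HF) and 0.14 (HF-ESTR over sham). Of the 16 and 8 members called, 13 and 5 changed sign unscaled and 13 and 6 scaled to the controls. Among those with the largest changes, signs turned for miR-1942 (0.0232 and 0.0344 unscaled, 0.0402 scaled to the controls), miR-1899 (0.0416, 0.0411 and 0.0469) and miR-1897-3p (0.0519, 0.0484 and 0.0542) in HF over sham. In HF-ESTR over HF they turned among these for miR-2145 (-0.0895 scaled to the controls), miR-1970 (-0.00293, -0.0303 and -0.18) and miR-1897-3p (-0.0292, -0.0275 and -0.18). The causes were not tested. The alternatives without HF 2 and HF-ESTR 1, without HF-ESTR 4 and 5 and with fixed code blocks were chosen after seeing the data. Signals within 2 log2 units of the controls, 16 members, and saturated spots, 4 members, limit what can be read.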

Other observations

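Of the 153 late-numbered probes outside the deposited table, 46 were above the array's threshold on 1 or more arrays and 13 on 7 or more, with 8 to 24 such probes per HF-ESTR array, 5 to 27 per HF array and 7 to 16 per sham array. With a threshold at the mean plus 2 SD of the negative controls, 70 to 81 members were above it on HF-ESTR arrays, 75 to 85 on HF arrays and 70 to 83 on sham arrays.

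In 7 seeds a member matched another tested mouse miR. Beside miR-1907, miR-1971 and miR-1981, these were miR-1983 with miR-412-3p, miR-1187 with miR-466p-5p, miR-1947* with miR-674, miR-3473 with miR-185 and miR-882, and miR-3107* with miR-486*.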
